A study of Homo sapiens with 12 samples.

Results

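The genes described here are the inflammatory cytokine and NF-kB feedback genes TNF, IL32, EBI3, CXCL8, CXCL1, TNFAIP3, NFKBIA, RELB, NFKB2 and BIRC3, 10 genes beside the 20039 genes that have a probe of their own on the array. Each is represented by every probe that the platform annotation pairs with its symbol alone. This gave 13 probes for 9 of the genes, and BIRC3, a ubiquitin ligase of the TNF receptor complex, was not analysed here because the annotation used names no probe for it. The genes were chosen by their signal in siOct4 against Ctrl, known from earlier results of these data, so the values of that contrast are given as a description, with no test. All samples were OVCAR-3 cells, a line of human high-grade serous ovarian carcinoma, transfected with Lipofectamine RNAiMAX and collected 72 hours later. The groups of 3 arrays each were siOct4 (Oct4 siRNA, target gene POU5F1), siCcnf+siNipp1 (Ccnf siRNA together with Nipp1 siRNA, target genes CCNF and PPP1R8), siRb1 (Rb1 siRNA, target gene RB1) and Ctrl (control siRNA). All 12 samples therefore come from 1 cell line, and all of them, Ctrl included, received siRNA. The labels call the samples biological replicates but do not give whether they were grown as separate cultures. The p-values therefore measure the spread between these samples, which may be technical.

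NF-kB is a family of dimeric transcription factors built from RELA, REL, RELB and the products of NFKB1 and NFKB2. In resting cells the dimers are held in the cytoplasm by inhibitors such as the IkB protein encoded by NFKBIA. Receptors such as the TNF receptors activate a kinase complex that marks the inhibitor for destruction, and the freed dimers switch on cytokine and chemokine genes together with their own brakes, NFKBIA and TNFAIP3. A slower, non-canonical branch works through RELB and the processed product of NFKB2. In epithelial tumour cells, TNF and CXCL8 are well-known products of the pathway.

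NF-kB dimers bind short DNA elements called kappa B sites, and the promoters are shown because members of the set are textbook examples of genes with such sites. The windows are the 250 bases before the annotated start of the gene, from RefSeq on GRCh38.p14, written 5′ to 3′ on the gene's strand, and RefSeq entries were found for 9 of the 10 genes. Capitals mark matches on either strand to the kappa B consensus or to GGAATTTCC, the overlapping 9-base form of the element. For IL32 the first of 2 listed starts is shown. The windows lie at chr6:31575315-31575564, plus strand (TNF), chr16:3065153-3065402, plus strand (IL32), chr4:73740319-73740568, plus strand (CXCL8), chr4:73869143-73869392, plus strand (CXCL1), chr6:137867009-137867258, plus strand (TNFAIP3) and chr14:35404750-35404999, minus strand (NFKBIA).
TNF: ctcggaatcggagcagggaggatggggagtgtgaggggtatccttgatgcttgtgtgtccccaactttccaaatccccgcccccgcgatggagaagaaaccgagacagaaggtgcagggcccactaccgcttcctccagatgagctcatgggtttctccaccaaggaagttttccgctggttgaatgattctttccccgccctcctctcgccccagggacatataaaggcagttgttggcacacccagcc
IL32: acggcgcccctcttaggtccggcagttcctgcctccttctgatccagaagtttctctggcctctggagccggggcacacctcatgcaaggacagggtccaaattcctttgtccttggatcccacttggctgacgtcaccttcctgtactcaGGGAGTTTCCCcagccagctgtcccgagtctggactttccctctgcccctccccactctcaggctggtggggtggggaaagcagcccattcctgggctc
CXCL8: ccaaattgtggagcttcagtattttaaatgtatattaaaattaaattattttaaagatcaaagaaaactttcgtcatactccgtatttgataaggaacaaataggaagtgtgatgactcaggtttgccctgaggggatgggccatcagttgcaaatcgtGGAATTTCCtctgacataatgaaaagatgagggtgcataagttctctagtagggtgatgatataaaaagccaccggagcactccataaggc
CXCL1: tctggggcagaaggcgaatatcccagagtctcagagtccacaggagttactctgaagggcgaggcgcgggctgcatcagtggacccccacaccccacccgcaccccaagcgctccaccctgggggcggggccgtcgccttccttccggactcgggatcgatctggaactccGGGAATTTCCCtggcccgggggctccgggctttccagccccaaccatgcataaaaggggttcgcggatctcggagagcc
TNFAIP3: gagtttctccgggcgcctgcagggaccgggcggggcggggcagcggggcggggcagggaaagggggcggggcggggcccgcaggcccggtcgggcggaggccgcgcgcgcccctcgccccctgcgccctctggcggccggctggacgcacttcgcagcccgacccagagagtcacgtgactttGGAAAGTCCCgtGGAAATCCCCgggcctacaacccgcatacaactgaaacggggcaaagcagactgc
NFKBIA: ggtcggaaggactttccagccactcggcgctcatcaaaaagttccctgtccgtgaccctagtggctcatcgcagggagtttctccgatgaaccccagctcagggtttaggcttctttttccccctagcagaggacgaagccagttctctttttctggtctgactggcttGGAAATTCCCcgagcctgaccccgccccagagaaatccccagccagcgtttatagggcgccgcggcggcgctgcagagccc

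The IL32 window holds overlapping matches that begin with GGGAGTTTCC, 99 to 90 bases before the start. In the CXCL8 window GGAATTTCC lies 91 to 83 bases before the start. The CXCL1 window holds GGGAATTTCC 79 to 70 bases before the start. TNFAIP3 has a pair of matches, GGAAAGTCCC and GGAAATCCCC as printed, between 67 and 46 bases before the start. In NFKBIA the printed match GGAAATTCCC lies 81 to 72 bases before the start. The TNF window holds no match to either form, which says only that these letters are not in these 250 bases. Over the set, 7 of the 9 genes had a kappa B consensus match in a window of at least 1 start, as did 11.8% of 27305 genes with windows of the same length. GGAATTTCC was found for 3 of the 9 genes (CXCL8, CXCL1 and NFKBIA), and for 0.502% of all genes. TGACTCA, the element of the AP-1 factors, was found on either strand in the windows of EBI3 and CXCL8, and for 5.19% of all genes. A match describes the sequence and does not show that a factor was bound there.

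The levels below are normalized log2 array signals. A probe was called detected on an array at a detection p-value under 0.01, and a gene was tested when its probe was detected on at least 3 of the 12 arrays. Of the 10 genes, 8 were tested. CXCL1, a neutrophil-attracting chemokine, was below the detection threshold on every array, with values between 5.39 and 6.16, and has no measured level in any group. IL32 was kept through its siOct4 and siCcnf+siNipp1 arrays alone, so that it had to differ from the other groups once it was kept, and its values are given as a description with no test. Signals of different probes are not compared with each other. Bulk RNA was measured, so fewer cells expressing a gene and less RNA per cell cannot be told apart.

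**Figure D1:**
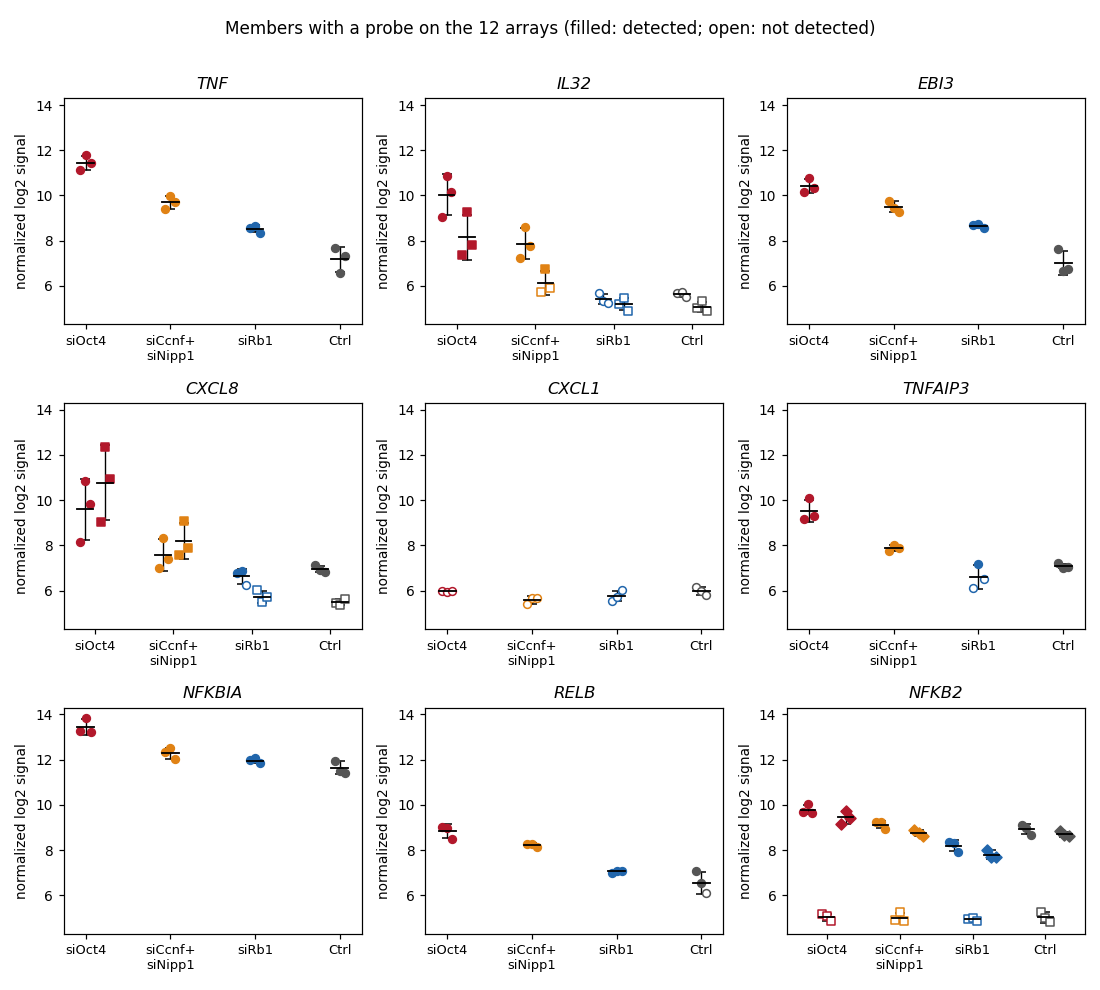
Normalized log2 signal (y axis) of the 9 genes with a probe on each array of siOct4, siCcnf+siNipp1, siRb1 and Ctrl (x axis). Each point is 1 array and each marker shape 1 probe of the gene, filled where detected and open where not, with the group mean and SD as a bar (n = 3). TNF and EBI3 form 4 steps that do not overlap, whereas CXCL1 is open on all 12 arrays.

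TNF, the cytokine that both activates NF-kB and is produced in response to it, had a separate level in each of the 4 groups. It read 11.12, 11.77 and 11.43 in siOct4, 9.40, 9.99 and 9.69 in siCcnf+siNipp1, 8.57, 8.65 and 8.35 in siRb1, and 7.66, 6.58 and 7.30 in Ctrl. No array of 1 group overlapped the arrays of the next, and all 12 arrays detected the transcript. TNF in siOct4 was 4.26 log2 units above Ctrl, 2.92 above siRb1 and 1.74 above siCcnf+siNipp1. In the comparisons that did not involve siOct4, limma's moderated test gave a log2 difference of 2.52 ± 0.26 (SE) for siCcnf+siNipp1 against Ctrl (adjusted p = 4.34e-05). For siRb1 against Ctrl the log2 difference of TNF was 1.35, with a 95% interval of 0.79 to 1.91 (limma, adjusted p = 0.0121). TNF was also higher in siCcnf+siNipp1 than in siRb1, by 1.17 (limma, adjusted p = 0.00417). The comparisons with Ctrl use the same Ctrl arrays as the contrast that chose the genes. The difference of siCcnf+siNipp1 from siRb1 uses no array of that contrast. Its SE and p-value still do, because 1 model over all 12 arrays gave the spread.

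EBI3 encodes a subunit that pairs with the products of IL27 or IL12A to form secreted cytokines, and its pattern was the nearest to that of TNF among the set. Its signal was 10.16, 10.77 and 10.33 in siOct4, 9.77, 9.46 and 9.29 in siCcnf+siNipp1, 8.67, 8.74 and 8.58 in siRb1, and 7.61, 6.64 and 6.74 in Ctrl. The 4 groups again formed separate steps. The root mean square distance between the TNF and EBI3 profiles over the 12 arrays, each centred on its own mean, was 0.495 log2 units. For TNF and the other 6 tested genes it was 0.775 to 1.27. The distance of 0.775 is that of IL32, undetected on all siRb1 and Ctrl arrays, so it rests in part on values below detection. EBI3 lay 3.42 log2 units above Ctrl in siOct4. It was higher than in Ctrl by 2.51 in siCcnf+siNipp1 (limma, adjusted p = 2.95e-05) and by 1.67 in siRb1 (adjusted p = 0.00325). EBI3 was 0.84 higher in siCcnf+siNipp1 than in siRb1 (limma, adjusted p = 0.0175), a call that was lost without siCcnf+siNipp1 replicate 1 (adjusted p = 0.0608) or without siRb1 replicate 3 (0.0537). Its known partner genes were not measurable here: IL27 and IL12A had probes that did not pass the detection filter.

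IL32, a human cytokine that induces TNF in monocytes, was detected in siOct4 and siCcnf+siNipp1 and in no array of the other groups. The probe read for the gene gave 9.06, 10.88 and 10.17 in siOct4 and 7.23, 8.59 and 7.77 in siCcnf+siNipp1. On the undetected arrays the same probe read 5.69, 5.35 and 5.24 in siRb1 and 5.66, 5.71 and 5.50 in Ctrl. The siOct4 and siCcnf+siNipp1 arrays did not overlap, and siRb1 and Ctrl both lay below the detection threshold. Because the lower group has a bound and no level, the change is given against the lowest detected signal of each of its arrays: IL32 was at least 11.4-fold higher in siOct4 than in Ctrl. It was at least 2.53-fold higher in siCcnf+siNipp1 than in Ctrl and at least 2.38-fold higher in siCcnf+siNipp1 than in siRb1. The second IL32 probe read 7.36, 9.27 and 7.80 in siOct4 and passed detection on 1 of 3 siCcnf+siNipp1 arrays (6.74) and on no siRb1 or Ctrl array.

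CXCL8, a chemokine that attracts neutrophils, varied most between replicates in siOct4. The probe with the higher mean over all arrays read 8.14, 10.84 and 9.81 in siOct4, 6.98, 8.34 and 7.41 in siCcnf+siNipp1, 6.78, 6.88 and 6.26 in siRb1, and 7.13, 6.90 and 6.84 in Ctrl. The siOct4 arrays lay above all Ctrl arrays but overlapped siCcnf+siNipp1. The SD in siOct4 was 1.36, and replicate 1 of siOct4 stood below replicate 2 of siCcnf+siNipp1. On this probe, siOct4 was 2.64 log2 units above Ctrl. Neither siCcnf+siNipp1 (0.62, 95% interval -0.55 to 1.79; limma, adjusted p = 0.386) nor siRb1 (-0.31, 95% interval -1.48 to 0.85; adjusted p = 0.819) passed the threshold against Ctrl.

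The second CXCL8 probe was kept through its siOct4 and siCcnf+siNipp1 arrays alone, so its values carry no test. It was undetected on all siRb1 and Ctrl arrays, where it lay between 5.38 and 6.01, and read 9.05, 12.34 and 10.93 in siOct4 and 7.57, 9.08 and 7.90 in siCcnf+siNipp1. By this probe CXCL8 was at least 19.0-fold higher in siOct4 than in Ctrl. It was at least 3.17-fold higher in siCcnf+siNipp1 than in Ctrl and at least 2.98-fold higher than in siRb1. Both probes placed siOct4 highest and left siRb1 and Ctrl overlapping or undetected.

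TNFAIP3 encodes a ubiquitin-editing enzyme that shuts off signalling from the TNF receptor. Its signal was 9.18, 10.08 and 9.28 in siOct4, 7.75, 8.00 and 7.88 in siCcnf+siNipp1, 6.13, 7.17 and 6.52 in siRb1, and 7.20, 7.00 and 7.06 in Ctrl. The siOct4 and siCcnf+siNipp1 arrays formed separate steps above the rest, and 2 of 3 siRb1 arrays fell below detection. TNFAIP3 in siOct4 was 2.42 log2 units above Ctrl. It was higher in siCcnf+siNipp1 than in Ctrl by 0.78 (limma, adjusted p = 0.0342) and higher than in siRb1 by 1.27 (adjusted p = 0.00311). The call against Ctrl was lost without replicate 2 (adjusted p = 0.0987) or 3 (0.0784) of siCcnf+siNipp1 and without Ctrl replicate 1 (0.0563), 2 (0.0889) or 3 (0.0811). Against Ctrl, siRb1 differed by -0.49 with a 95% interval of -1.06 to 0.09 (limma, adjusted p = 0.352).

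NFKBIA, the IkB brake that NF-kB itself induces, was detected on all 12 arrays. It read 13.29, 13.84 and 13.22 in siOct4, 12.33, 12.50 and 12.01 in siCcnf+siNipp1, 11.96, 12.06 and 11.83 in siRb1, and 11.96, 11.51 and 11.42 in Ctrl. The siOct4 arrays stood apart from the other 9. The siCcnf+siNipp1 arrays all lay above the Ctrl arrays and overlapped those of siRb1. NFKBIA was 1.82 log2 units above Ctrl in siOct4. It was higher by 0.65 in siCcnf+siNipp1 than in Ctrl (limma, adjusted p = 0.0211). That call was lost without replicate 1 (adjusted p = 0.0507) or 2 (0.0842) of siCcnf+siNipp1, and without Ctrl replicate 2 (0.0689) or 3 (0.0816). In siRb1 the difference from Ctrl was 0.32, with a 95% interval of -0.11 to 0.75 (limma, adjusted p = 0.419).

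RELB, the Rel subunit of the non-canonical branch, read 9.03, 8.99 and 8.51 in siOct4, 8.29, 8.25 and 8.12 in siCcnf+siNipp1, 6.99, 7.09 and 7.08 in siRb1, and 7.06, 6.54 and 6.08 in Ctrl. Replicate 3 of Ctrl was below detection. The siOct4 and siCcnf+siNipp1 arrays formed separate steps, and siRb1 overlapped Ctrl. RELB in siOct4 was 2.28 log2 units above Ctrl. It was higher in siCcnf+siNipp1 than in Ctrl by 1.66 (limma, adjusted p = 0.000157) and higher than in siRb1 by 1.17 (adjusted p = 0.00147). The siRb1 difference from Ctrl was 0.49 (95% interval 0.03 to 0.96; limma, adjusted p = 0.232).

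NFKB2 encodes the precursor that is cut to make the partner of RELB, and of the 8 tested genes it had the smallest difference of siOct4 from Ctrl. The probe read for the gene gave 9.69, 10.02 and 9.63 in siOct4, 9.23, 9.22 and 8.94 in siCcnf+siNipp1, 8.36, 8.29 and 7.93 in siRb1, and 9.12, 8.99 and 8.67 in Ctrl. The siRb1 arrays lay below all others, and the siCcnf+siNipp1 arrays overlapped Ctrl. NFKB2 was 0.86 log2 units above Ctrl in siOct4, and siCcnf+siNipp1 differed from Ctrl by 0.20 (95% interval -0.16 to 0.57; limma, adjusted p = 0.36). In siRb1 it fell by 0.73 on the log2 scale relative to Ctrl (limma, adjusted p = 0.0276). This call was lost without replicate 2 (adjusted p = 0.0613) or 3 (0.112) of siRb1, or without Ctrl replicate 1 (0.094) or 2 (0.0857). A second NFKB2 probe gave -0.90 for siRb1 against Ctrl (limma over all kept probes, adjusted p = 0.0098), and another, paired with a different transcript, was undetected on all 12 arrays. Between siCcnf+siNipp1 and siRb1, NFKB2 was higher by 0.94 in siCcnf+siNipp1 (limma, adjusted p = 0.00123).

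Read over the set, siOct4 had the highest mean for all 8 tested genes and siCcnf+siNipp1 the second highest. For CXCL8 the siCcnf+siNipp1 arrays overlapped those of siOct4 and Ctrl. The Ctrl arrays lay below all others for TNF and EBI3, and the siRb1 arrays did so for NFKB2. For CXCL8, TNFAIP3, NFKBIA and RELB the arrays of siRb1 and Ctrl overlapped, and IL32 was undetected in both, so these have no order between siRb1 and Ctrl. All 3 siOct4 arrays lay above all 3 Ctrl arrays for the 8 genes, where 23.8% of all 10873 genes tested did so. Since the choice of genes used this contrast, nothing is read from that count. The siOct4 median difference over the 8 was 2.53 log2 units, with or without IL32 at its bound, and the median over all genes was -0.01.

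With IL32 set aside, 7 genes carry a test. In siCcnf+siNipp1 against Ctrl, 5 of the 7 rose (TNF, EBI3, TNFAIP3, NFKBIA and RELB), where 19% of all genes tested were called higher (limma, adjusted p under 0.05). CXCL8 and NFKB2, at 0.62 and 0.20, did not pass, and the median of the 7 was 0.78, against 0.00 for all genes. Against siRb1, where 17.6% of all genes were called higher, 5 of the 7 passed as higher in siCcnf+siNipp1 (TNF, EBI3, TNFAIP3, RELB and NFKB2), and the others, CXCL8 and NFKBIA, differed by 0.93 (adjusted p = 0.199) and 0.33 (0.215). The median over the 7 was 0.94. In siRb1 against Ctrl, TNF and EBI3 rose and NFKB2 fell, where 2.96% of all genes were called higher and 1.74% lower. The number of genes called for siRb1 against Ctrl depended on single arrays: it was 511 of 10873, and 310, 271 and 227 without replicate 1, 2 or 3 of siRb1, and 320 and 165 without replicate 2 or 3 of Ctrl. With the replicate number as a block, 1162 genes were called in siRb1 against Ctrl, and the calls of the members were the same.

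**Figure D2:**
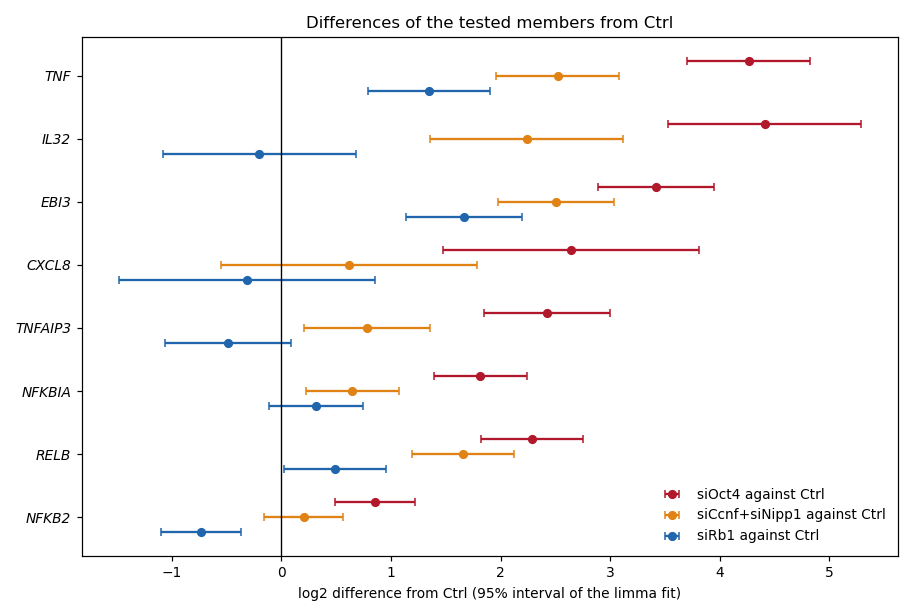
Log2 difference from Ctrl (x axis) of the 8 tested genes (y axis) in siOct4, siCcnf+siNipp1 and siRb1. Points are differences of group means (n = 3 arrays each) and bars the 95% interval of the limma fit, and the siOct4 contrast chose the genes. IL32 was undetected in siRb1 and Ctrl, so its points are fitted values and not bounds. The siOct4 points are rightmost for every gene, between 0.86 and 4.41, and the siRb1 points lie on both sides of 0, between -0.73 and 1.67.

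The sizes of these differences depended on the background correction. Without it, the siOct4 difference from Ctrl was 1.30 for RELB, against 2.28 with it. For TNF it was 3.28, against 4.26. Directions of the members against Ctrl did not depend on it in siOct4 or siCcnf+siNipp1.

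The arrays of a group differed from each other in a like way for several of the genes. In siOct4, replicate 2 was the highest array for 7 of the 8 genes, RELB being the exception, and the mean deviation of its 8 genes from their group means was 0.51 log2 units. Replicate 1 of siOct4 was the lowest array for 5 genes, led by CXCL8 (-1.46 from its group mean) and IL32 (-0.98). Replicate 2 was also the highest for 5 genes in siCcnf+siNipp1 and for 6 in siRb1, whereas in Ctrl it was replicate 1, for 7 of 8. Within siOct4 the SD was 1.36 for CXCL8 and 0.92 for IL32, and it lay between 0.21 (NFKB2) and 0.49 (TNFAIP3) for the other 6 genes.

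**Figure D3:**
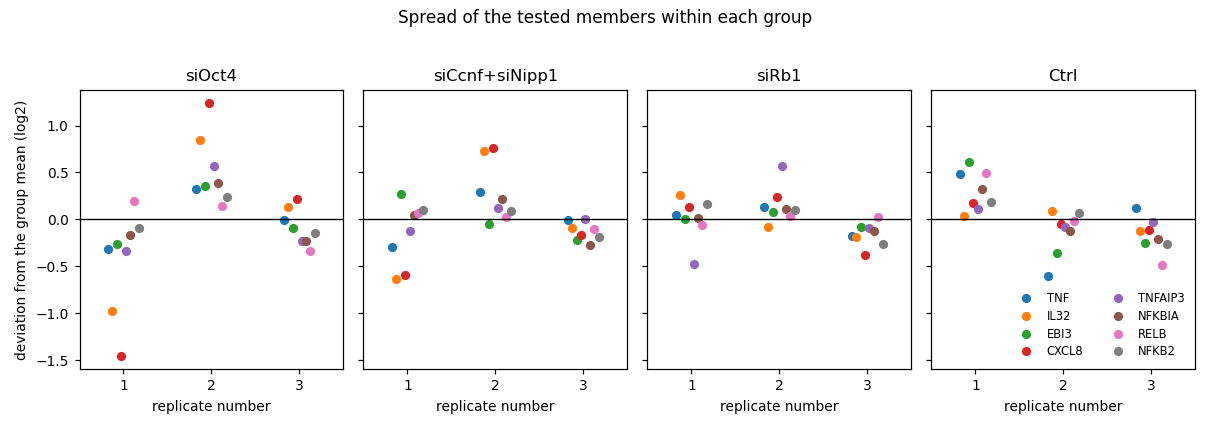
Deviation of each array from its group mean (y axis, log2) for the 8 tested genes (colours) by replicate number (x axis), in 4 panels for siOct4, siCcnf+siNipp1, siRb1 and Ctrl. CXCL8 and IL32 spread most, from -1.46 to 1.24 for CXCL8 in siOct4.

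The rest of the pathway was read from 12 lists of 126 other genes, of which 89 were tested. In siOct4 against Ctrl, 39 of the 89 rose and 5 fell (49.4%), where 34.2% of all genes were called. Their median difference was 0.37, both as fitted and with undetected genes at their bounds. In siCcnf+siNipp1, 31 rose and 4 fell (39.3%), where 38.3% of all genes were called, with a median of 0.41 (0.28 at the bounds). In siRb1 4 rose and 1 fell (5.62%), where 4.7% of all genes were called. Counting rises alone, the pathway shares were 43.8% in siOct4, 34.8% in siCcnf+siNipp1 and 4.49% in siRb1. Over all genes tested, 1910 of 10873 were called higher in siOct4, 19% in siCcnf+siNipp1 and 2.96% in siRb1. Without Ctrl replicate 3, 24 pathway genes rose in siOct4 and 3 fell, and 1 rose in siRb1. Without siOct4 replicate 3, 3 fell in siOct4, and without siRb1 replicate 2 or 3, 2 rose in siRb1. The 5 that fell in siOct4 were TNFRSF11B, RIPK2, TBK1, TAX1BP1 and TNFAIP8, and the 4 that fell in siCcnf+siNipp1 were TNFRSF21, TAB1, N4BP1 and BCL2L1. In siRb1, FAS, CXCL16, PLAU and EGR1 rose and TNFRSF21 fell. With the replicate number as a block, 10 pathway genes rose and 3 fell in siRb1. Of the genes counted as having risen, 4 in siOct4 (FAS, IL15, IL23A and SAA1), 4 in siCcnf+siNipp1 (CD40, FAS, IL15 and SAA1) and 1 in siRb1 (FAS) were undetected on all Ctrl arrays. These were kept through knockdown arrays alone, so they are given below with bounds and no test. Among the genes with no such bound, 35 of 84 rose in siOct4, 27 of 80 in siCcnf+siNipp1 and 3 of 85 in siRb1. The shares of all genes called higher, given above, were not recomputed without genes undetected in Ctrl, so they are no equal yardstick. The genes that passed in opposite directions against Ctrl were TNFRSF11B, TNFRSF21, RIPK2, TAX1BP1 and TNFAIP8, named after their values were seen. TNFRSF21, a death-domain receptor, rose by 0.67 in siOct4 (limma, adjusted p = 0.000515) and fell by 0.72 on the log2 scale in siCcnf+siNipp1 (0.00029). RIPK2, a kinase that signals from NOD receptors, fell by 0.36 on the log2 scale in siOct4 (limma, adjusted p = 0.0247) and rose by 0.48 in siCcnf+siNipp1 (0.00471). TAX1BP1, an adaptor of TNFAIP3, fell by 0.48 on the log2 scale in siOct4 (limma, adjusted p = 0.00403) and rose by 0.57 in siCcnf+siNipp1 (0.00144). For these 3, siOct4 differed from siCcnf+siNipp1 by 1.38, -0.84 and -1.05. These differences carry no test, because the opposite calls against Ctrl chose the genes.

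Among receptors and ligands of the TNF family, 5 of the 10 tested rose in siOct4 and 1 fell, and 6 rose and 1 fell in siCcnf+siNipp1. That is 60% called in siOct4 and 70% in siCcnf+siNipp1, beside 34.2% and 38.3% of all genes. The rises counted include FAS in both groups and CD40 in siCcnf+siNipp1, which were undetected in Ctrl and carry no test. These shares are therefore a description. TNFRSF11B, the decoy receptor osteoprotegerin, went opposite ways: its signal was 7.76, 8.00 and 7.79 in siOct4 and 10.92, 11.29 and 11.67 in siCcnf+siNipp1, against 9.28, 9.21 and 9.41 in Ctrl. The siOct4 arrays lay below Ctrl (-1.45; limma, adjusted p = 0.000212) and the siCcnf+siNipp1 arrays above it (1.99, adjusted p = 2.87e-05). The difference of siOct4 from siCcnf+siNipp1 was -3.44, with no test because the opposite calls chose the gene. FAS, a death receptor, was detected on all knockdown arrays and on no Ctrl array. It was at least 1.34-fold higher than in Ctrl in siOct4, 2.47-fold in siCcnf+siNipp1 and 1.95-fold in siRb1. TNFRSF10B, a receptor for the death ligand TRAIL, rose by 0.98 in siOct4 (limma, adjusted p = 0.000409) and by 1.26 in siCcnf+siNipp1 (7.52e-05). TNFRSF1A, the main TNF receptor of epithelial cells, rose by 0.56 in siOct4 (limma, adjusted p = 0.0181) and by 0.62 in siCcnf+siNipp1 (0.00918), and the siOct4 call was lost without siOct4 replicate 1 (0.0624) or Ctrl replicate 3 (0.0799). The second TNF receptor, TNFRSF1B, did not pass the detection filter. CD40, an activating receptor of the non-canonical branch, was detected on 1 siOct4 array, 2 siCcnf+siNipp1 arrays and no Ctrl array, and was at least 1.09-fold higher in siCcnf+siNipp1 than in Ctrl.

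The list of IKK and upstream kinases also holds partner proteins that are not kinases. Of its 11 tested genes, 6 rose in siOct4 and 1 fell, and 5 rose and 1 fell in siCcnf+siNipp1. That is 63.6% and 54.5% called, beside 34.2% and 38.3% of all genes. IKBKE, an IKK-related kinase, rose by 1.41 in siOct4 (limma, adjusted p = 2.52e-05) and by 0.76 in siCcnf+siNipp1 (0.00102). MAP3K8, a kinase that signals downstream of NFKB1, rose by 1.11 in siOct4 (limma, adjusted p = 0.0054) and by 1.41 in siCcnf+siNipp1 (0.0012). Among 9 receptor adaptors 4 rose in each of siOct4 and siCcnf+siNipp1, and 1 fell in siOct4 (55.6% called in siOct4 and 44.4% in siCcnf+siNipp1). The largest difference was that of IRAK2, an adaptor kinase of interleukin receptors, at 1.17 in siOct4 (limma, adjusted p = 0.000246) and 1.06 in siCcnf+siNipp1 (0.000387). Of the 3 other Rel subunits, NFKB1 rose in siOct4, by 0.85 (limma, adjusted p = 0.0019), with 13.17, 13.41 and 13.04 in siOct4 and 12.61, 12.22 and 12.23 in Ctrl. RELA, the main activating subunit, differed by 0.37 (adjusted p = 0.124) in siOct4 and by 0.45 (0.0612) in siCcnf+siNipp1, and REL by -0.11 in both (0.664 and 0.657). NFKB1 in siCcnf+siNipp1 differed from Ctrl by -0.15 (adjusted p = 0.489), and in siRb1 RELA, REL, NFKB1 and TNFRSF1A differed by -0.09, -0.24, 0.08 and 0.10 (limma, adjusted p from 0.506 to 0.844). RELA passed in siCcnf+siNipp1 with the replicate number as a block (adjusted p = 0.0354) and without Ctrl replicate 1 (0.00678, and 0.0137 for RELA in siOct4).

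Of the 6 other IkB proteins 1 rose in siOct4 (NFKBIE), which is 16.7%, and of 11 further brakes 2 rose and 1 fell in siOct4 (27.3%), beside 34.2% of all genes called. ZC3H12A, an RNase that degrades cytokine messages, rose by 1.03 in siOct4 (limma, adjusted p = 0.00557). In the target list, 7 of 15 rose in siOct4 and 1 fell, and 5 rose and 1 fell in siCcnf+siNipp1. That is 53.3% and 40% called, beside 34.2% and 38.3% of all genes. The rises counted include SAA1 in both groups, which was undetected in Ctrl and carries no test. PLAU, the urokinase plasminogen activator, read 11.58, 11.76 and 11.93 in siOct4, 10.53, 11.53 and 10.89 in siCcnf+siNipp1, 9.99, 10.04 and 9.99 in siRb1, and 8.81, 9.06 and 8.83 in Ctrl. All 3 knockdown groups lay above Ctrl: PLAU rose by 2.86 in siOct4 (limma, adjusted p = 5.95e-06), 2.08 in siCcnf+siNipp1 (3.52e-05) and 1.10 in siRb1 (0.0112, and 0.0558 without Ctrl replicate 3). SAA1, an acute-phase protein, was undetected in Ctrl and siRb1, and at least 4.24-fold higher than in Ctrl in siOct4 and 1.80-fold in siCcnf+siNipp1. TNFAIP8, a TNF-induced regulator of cell death, fell by 1.21 on the log2 scale in siOct4 (limma, adjusted p = 0.00014) and rose by 0.81 in siCcnf+siNipp1 (0.00152). The siOct4 level of TNFAIP8 differed from that in siCcnf+siNipp1 by -2.02, with no test because the opposite calls chose the gene. CFLAR, an inhibitor of death receptor signalling, rose by 1.31 in siCcnf+siNipp1 (limma, adjusted p = 0.000109) and by 0.51 in siOct4 (0.0252).

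Most other cytokine and chemokine genes were not measurable: 3 of 12 other chemokines and 5 of 12 other cytokines were tested. Of these chemokines CXCL16 rose in each of the 3 knockdown groups. IL23A, the specific subunit of another heterodimeric cytokine, was undetected in Ctrl and read 6.70, 8.96 and 8.09 in siOct4, at least 2.63-fold higher than in Ctrl. IL15, which sustains T and natural killer cells, was kept through 2 siOct4 arrays and 1 siCcnf+siNipp1 array alone, and its bounds against Ctrl were 1.05-fold in siOct4 and 1.07-fold in siCcnf+siNipp1. IL6ST, the signalling chain shared by receptors for EBI3-containing cytokines, rose by 1.27 in siOct4 (limma, adjusted p = 9.3e-05) and by 1.95 in siCcnf+siNipp1 (7.36e-06). IL27RA, the other chain of the receptor for the EBI3 and IL27 dimer, rose by 0.98 (limma, adjusted p = 0.00553) and 1.33 (0.000826) in the same groups.

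**Figure D4:**
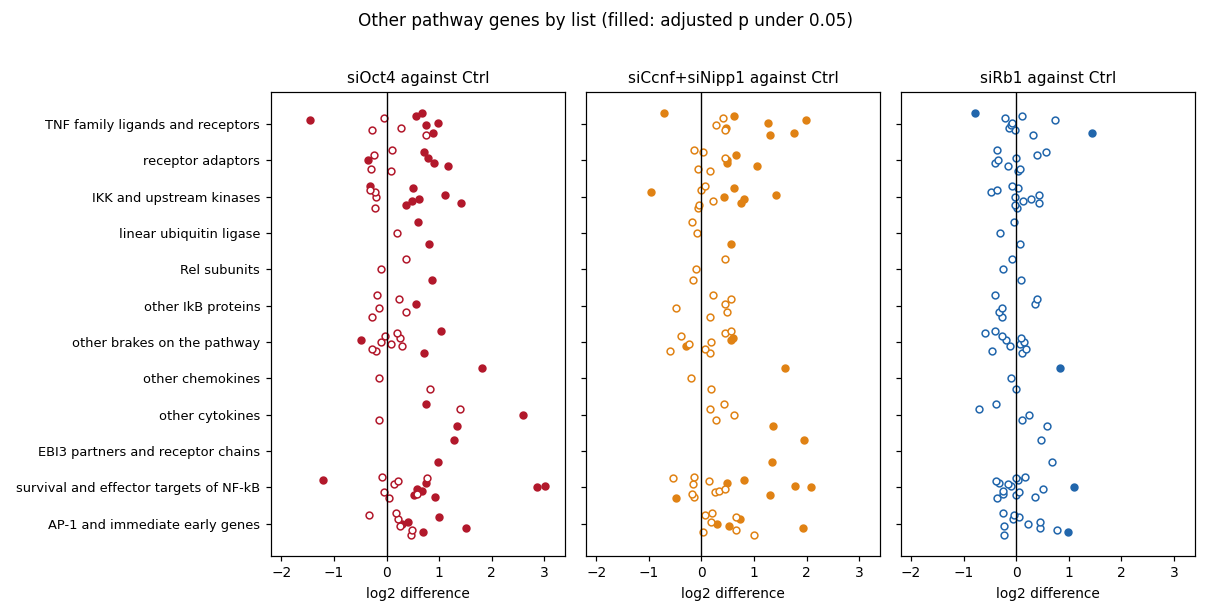
Log2 difference from Ctrl (x axis) of the 89 other pathway genes tested, by list (y axis), in siOct4, siCcnf+siNipp1 and siRb1. Each point is 1 gene, filled at an adjusted p under 0.05. Filled points number 44 in siOct4, 35 in siCcnf+siNipp1 and 5 in siRb1.

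Outside these lists, the genes whose values over the 12 arrays were nearest to TNF, each profile centred on its own mean, were SGPP2, PPP1R1A, HLA-B, FLG and IFIT2. The root mean square distances were 0.270, 0.454, 0.526, 0.580 and 0.601 log2 units. SGPP2, a sphingosine phosphate phosphatase, averaged 11.51 in siOct4, 9.86 in siCcnf+siNipp1, 8.47 in siRb1 and 7.46 in Ctrl. HLA-B, an antigen-presenting molecule, averaged 11.72 in siOct4, 10.98 in siCcnf+siNipp1, 9.38 in siRb1 and 8.80 in Ctrl. Nearest to the mean profile of the 8 genes were ABCA4 (0.277), IFIH1 (0.351) and HLA-B (0.355). PPP1R1A and IFIH1 were undetected on all siRb1 and Ctrl arrays and IFIT2 was detected on 1 of 3 Ctrl arrays, so their distances rest in part on values below detection, as does that of ABCA4, detected on 2 of 3 siRb1 and 2 of 3 Ctrl arrays. These distances describe 12 arrays of 4 groups and carry no test.

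**Figure D5:**
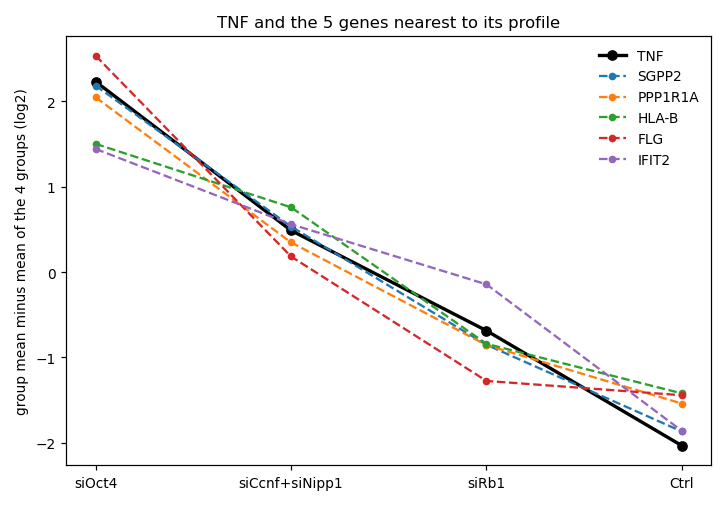
Group means minus the mean of the 4 groups (y axis, log2) in siOct4, siCcnf+siNipp1, siRb1 and Ctrl (x axis) for TNF (solid) and the 5 genes nearest to it (dashed). All 6 lines descend from siOct4 to Ctrl, PPP1R1A being undetected in siRb1 and Ctrl, and SGPP2 lies closest to TNF, at a distance of 0.270.

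The POU5F1 probe of highest mean was undetected on all siOct4 arrays (mean 5.31, against 10.58 in Ctrl), whereas another probe of that gene read 7.57 in siOct4 and 7.30 in Ctrl. CCNF averaged 10.36 in siCcnf+siNipp1 and 11.91 in Ctrl, and RB1 was undetected in siRb1 (5.87, against 7.76 in Ctrl). PPP1R8, with no probe named, was not analysed here. CCNF also averaged 10.95 in siOct4, with all arrays below those of Ctrl, but its mean was not lower in siRb1. RB1 averaged 7.15 in siOct4 and 8.14 in siCcnf+siNipp1, both overlapping Ctrl. The POU5F1 probe of highest mean averaged 11.61 in siCcnf+siNipp1 and 11.38 in siRb1, whereas the other probe read 6.82 and 7.08. The part of these differences in the results was not tested. Each array detected between 16186 and 17351 probes (34.2 to 36.7%), and the correlation over genes was 0.980 to 0.990 between arrays of a group. Of 8 markers of serous ovarian epithelium, between 4 and 6 were detected on every array of a group. WT1 was detected on no array. KRT8 was detected on all Ctrl arrays (mean 7.65) and on no array of the knockdown groups. MSLN was undetected in siCcnf+siNipp1 (5.35, against 8.25 in Ctrl). The summed signal of these 8 was 25728 to 28862 in siOct4, 19014 to 24365 in siCcnf+siNipp1, 18455 to 21517 in siRb1 and 24368 to 27709 in Ctrl. Of 11 leukocyte markers with a probe, CD68 was detected in every group on all arrays, FCGR3A on 2 of 3 siOct4 arrays and all others, and PTPRC and CD3E on none. CSF1R was detected on 2 siOct4 arrays, 2 siCcnf+siNipp1 arrays, no siRb1 array and 1 Ctrl array, and CD14 on 1 siCcnf+siNipp1 array. FCGR3A averaged 7.14 in siOct4, 7.78 in siCcnf+siNipp1, 7.77 in siRb1 and 7.40 in Ctrl. Of 4 endothelial markers 2 were detected on all arrays, and of 6 fibroblast markers at most 1 was detected in a group. The summed leukocyte marker signal was highest in siOct4, at 3590 to 5319 in siOct4, 2518 to 3440 in siCcnf+siNipp1, 2269 to 2617 in siRb1 and 1896 to 2818 in Ctrl, and the part of these markers in the results was not tested. CD68, its most abundant gene, averaged 11.93 in siOct4, 11.11 in siCcnf+siNipp1, 10.84 in siRb1 and 10.80 in Ctrl.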

How the data were processed

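Illumina HT-12 bead arrays measured the RNA of 12 OVCAR-3 samples. Per the file headers, the authors deposited 2 columns per array over 47322 probes, the signal intensity and its detection p-value. They also deposited a normalized intensity for 47303 probes, made by a method not stated there. Arrays were read in GenomeStudio, per the submitters' processing notes. Genes were named from the platform annotation, which pairs 30102 probes with 1 gene, 8 with several and 17212 with none.

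The deposited intensities were turned into log2 values with neqc of limma 3.58.1 under R 4.3.3 (background from the detection p-values, offset 16, quantile normalization). The filter kept 14441 probes with 1 gene, detected at p under 0.01 on 3 or more of the 12 arrays. The kept probe of highest mean stood for a gene (10873 genes), and further probes of the members were tested over all kept probes. One limma model with 4 group means (8 residual and 3.85 prior degrees of freedom) gave all comparisons, two-sided, with Benjamini-Hochberg adjustment over all genes and calls at an adjusted p under 0.05. With 3 arrays a group, array number sets the precision. The script was tested on simulated data.

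A change is given as "at least N-fold" where no array of the lower group detected the probe, using for each array the higher of its lowest detected value and the probe's own. The members and the pathway lists were chosen with earlier results of these data known. Pathway genes were named where called with a log2 difference of at least 1, together with RELA, REL, NFKB1, TNFRSF1A and TNFRSF1B. A gene named by 1 comparison may be given in the others. Genes outside this rule, named beside a count of 5 or fewer or as added by the replicate block, were named after their values were seen.

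The groups share replicate numbers in the titles. Deviations of same-numbered samples from their group means correlated in all 18 pairs (lowest 0.107, median 0.325), so the numbers were taken to pair the samples. The main model has no term for this pairing, so p-values leave it out unless the replicate block is named. A difference that missed the threshold there may pass with the block. For the fit with the replicate block, counts that it moves by over 1.5 times and the numbers of added calls are printed. Not every pathway gene with an added call is named. Alternatives were no background correction, median scaling, the authors' table, other detection filters, the mean of a gene's probes, the replicate block and each array left out in turn. Promoters came from RefSeq on GRCh38.p14. Coordinates of probes are left out because the array files name no build. Figures were drawn with matplotlib 3.10.9 in Python 3.11.15.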

Additional observations from a re-analysis of the deposited data

How the results depend on the processing

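The results above were recomputed under 19 alternatives. Members called higher numbered 4 to 7 in siCcnf+siNipp1 against Ctrl, 2 in siRb1 against Ctrl and 5 to 7 in siCcnf+siNipp1 against siRb1, where IL32, kept through its higher groups alone, is counted in both comparisons of siCcnf+siNipp1. With the replicate block, siRb1 against Ctrl gave 1162 genes in all, 10 pathway genes higher and 3 lower. The block also brought RELA past the threshold in siCcnf+siNipp1 (adjusted p = 0.0354) and changed no call of a member. Over the pathway genes the block added 6 calls in siOct4, 10 in siCcnf+siNipp1 and 8 in siRb1 against Ctrl and took none away. The 6 added in siOct4 were LTBR, N4BP1, IL6 and DRAM1, which were higher, and IRAK1 and JUND, which were lower. IL6 differed by 1.39 there (limma, adjusted p = 0.0175 with the block and 0.0636 without it). The other added calls included ATF3 (1.00, adjusted p = 0.00138) and ZC3H12A (0.56, 0.00816) in siCcnf+siNipp1, and TNFRSF11B (0.73, 0.0165), IL6ST (0.47, 0.0166), IL27RA (0.67, 0.043) and IKBKE (0.43, 0.0358) in siRb1. Pathway genes lower in siRb1 numbered 2 without background correction and 2 in the authors' table. With 1 array left out, the count for siRb1 ranged from 165 to 556 genes in all, from 1 to 5 pathway genes higher and from 0 to 1 members lower, and for siOct4 from 24 to 38 pathway genes higher and from 3 to 7 lower. REL turned positive with the mean of its probes (0.12 in siOct4, 0.15 in siCcnf+siNipp1). With the mean of its probes, CXCL8 in siCcnf+siNipp1 was 1.66 above Ctrl and 1.69 above siRb1, and passed the threshold in both. That mean includes the second CXCL8 probe, which carries no test. With 1 array left out, differences that had not passed changed sign: REL from -0.22 to 0.0618 in siOct4 and from -0.18 to 0.0116 in siCcnf+siNipp1, NFKB1 from -0.24 to 0.0031 in siCcnf+siNipp1, and in siRb1 RELA from -0.29 to 0.12 and TNFRSF1A from -0.0562 to 0.20. TNFAIP3 in siCcnf+siNipp1 missed the threshold without background correction (adjusted p = 0.0506) and without a detection filter (0.0548). TNFRSF1A in siOct4 missed it with median scaling (0.0569). The cause of these changes was not tested. Median scaling moved the median of all genes by less than 0.1 and kept the direction of every called member. Signals near background limit CXCL1, IL32, the second CXCL8 probe and, in siRb1, TNFAIP3 and the first CXCL8 probe. In Ctrl they also limit TNF, EBI3 and RELB, whose lowest values there were 6.58, 6.64 and 6.08, that of RELB being undetected. The lowest detected signals of the Ctrl arrays lay between 6.49 and 6.55.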

Other observations

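Among the chemokines that could be measured, CXCL16, a membrane-bound chemokine, read 9.81, 10.41 and 10.26 in siOct4, 10.07, 9.95 and 9.78 in siCcnf+siNipp1, 9.20, 9.22 and 9.09 in siRb1, and 8.71, 8.20 and 8.11 in Ctrl. All 9 knockdown arrays lay above the Ctrl arrays. It rose by 1.82 in siOct4 (limma, adjusted p = 3.96e-05), 1.59 in siCcnf+siNipp1 (8.24e-05) and 0.83 in siRb1 (0.0243).

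AP-1 and immediate early genes, which many of the same stimuli induce, were read as a list of 11. In siOct4 5 rose (45.5%), in siCcnf+siNipp1 4 (36.4%) and in siRb1 1 (9.09%), and none fell. Over all genes tested, 1910 of 10873 were called higher in siOct4, 19% in siCcnf+siNipp1 and 2.96% in siRb1. FOSB, an AP-1 subunit, read 9.89, 10.70 and 10.21 in siOct4, 9.75, 11.45 and 10.86 in siCcnf+siNipp1, 8.14, 10.00 and 9.45 in siRb1, and 8.81, 8.85 and 8.59 in Ctrl. It rose by 1.93 in siCcnf+siNipp1 (limma, adjusted p = 0.00639) and by 1.51 in siOct4 (0.0247). The siOct4 call was lost without replicate 2 (0.0908) or 3 (0.0554) of siOct4 and without Ctrl replicate 1 (0.0527), 2 (0.0516) or 3 (0.0725).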
